A study of Mus musculus with 6 samples.

Results

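The Rab GTPases, the largest family of small GTPases of membrane traffic, were followed on the 6 arrays of the series. Members were all non-control probes whose gene name in the scanner files was Rab followed by a number, with at most 1 letter and 1 further digit. This gave 59 genes with 113 probes (122 spots), out of 37074 gene names and 56605 probes on the array. The family was picked because Rab6b was lower in 1 group than in the other, so the difference between the groups at Rab6b is the reason for the choice and is given below as a description, with no test of its own.

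The RNA was that of bile duct epithelium (common duct, total RNA) in C57BL/6 mice, called iFGF10 in the source names. In the DOX+ group 3 samples came from mice given 0.02% doxycycline, the drug that switches on tetracycline-controlled genes, in drinking water for 5 days, and in the DOX- group 3 samples came from mice given water alone for 5 days. All groups share the strain and the iFGF10 name, but the descriptions of the DOX- samples carry names starting with WT followed by a pair of numbers, so whether these mice carried the construct, and whether 1 sample is 1 mouse, is not settled by the labels. The promoter and cell type that drive the construct, and the age of the mice, are not given in the sources used here, and the drug and the induced gene cannot be told apart in this design.

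Rab proteins cycle between a GTP-bound form on a membrane and a GDP-bound form in the cytosol. Exchange factors (GEFs) switch them on, GTPase-activating proteins (GAPs) switch them off, and GDI and REP proteins escort the lipid-modified GDP form through the cytosol. Each compartment of the secretory and endocytic routes carries its own Rabs, and polarised epithelia such as the bile duct use several of them to deliver proteins to the apical surface. Rab6a is found in most cells and acts at the Golgi in retrograde and secretory transport, while its close relative Rab6b is best known from neurons.

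Between 55.93% and 61.9% of the 59305 non-control spots per array were well above background, with no saturated spot. With 3 arrays in each group, their number sets the precision. Of 20737 genes tested, 8 passed limma's test at an adjusted p of 0.05. Among defining markers the epithelial keratin Krt19 had means of 7.1 (DOX+) and 7.37 (DOX-) on the log2 scale explained below, and the smooth muscle gene Acta2, whose presence the tissue label does not name, had 5.46 and 5.1. In bulk RNA of this kind fewer cells of a type and less RNA per cell cannot be told apart. All 6 arrays were on 1 slide; the DOX+ arrays and DOX- replicate 1 lay in its first row, and DOX- replicates 2 and 3 in its second.

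Rab6b rested on a single probe and Rab6a on 2, so the probes themselves show what was measured. The Rab6b probe lies on chromosome 9, chr9:103087539-103087598 in the mm9 build of the files, and starts at base 4672 of the transcript it was designed on. The Rab6a probes lie at chr7:107789561-107789620, the brighter one, and chr7:107790063-107790122, the dimmer one. No exon annotation of that build was used here. The last 30 of their 60 bases are shown 5′ to 3′ as printed on the array, with AATAAA, the commonest polyadenylation hexamer, in capitals.
Rab6b: ttggtcaaacAATAAActgtcctaattctc
Rab6a, dimmer probe: gtgataaagtgcattggaAATAAAttatat
Rab6a, brighter probe: ttggattatggatctgaatagagaaatact
The hexamer, searched on the printed strand, was in 13 of the 113 Rab probes (11.5%) and in 9.77% of all probes. The longest run of bases that either Rab6a probe shared with the Rab6b probe was 6, and the longest shared with any of the other 112 Rab probes was 11. None of the other 56604 probes on the array shared a run of 20 bases with it.

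Rab6b gave processed intensities of 66.44, 81.58 and 90.92 on the DOX+ arrays and of 1053, 1117 and 522.9 on the DOX- arrays (replicates 1 to 3), and was well above background on all 6. All further levels are log2 of the processed intensity minus log2 of the array's 75th percentile, averaged over a probe's spots. On that scale the DOX+ arrays had -3.42, -3.35 and -3.32 and the DOX- arrays 0.36, 0.33 and -0.35. The groups did not overlap, the DOX+ arrays lay close together, and DOX- replicate 3 was the lowest of its group. The means were -3.37 ± 0.05 and 0.11 ± 0.40 (SD, n = 3 each), a difference of -3.48 (SE 0.22), which is 11.1-fold lower in DOX+. Of all genes tested 9 had a lower difference. The difference was -2.71 when background was corrected with normexp, here with an offset of 50 added to every signal. Blocking on slide row leaves DOX- replicate 1 as the only control beside the DOX+ arrays, and gave -3.73.

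Rab6a, the ubiquitous Golgi paralog, had levels of 3.3, 3.27 and 3.37 in DOX+ and 3.23, 3.32 and 3.7 in DOX- at its brighter probe. These overlapped, with DOX- replicate 3 the highest array. The difference was -0.11 (SE 0.16), with a 95% interval of -0.49 to 0.28, and did not pass (limma adjusted p = 0.805). It was 0.0039 with quantile normalisation and 0.04 without DOX- replicate 3. At the dimmer Rab6a probe the levels were -1.85, -1.79 and -1.55 in DOX+ and -1.29, -1.47 and -1.33 in DOX-, which did not overlap, and the difference was -0.37. Within an array the Rab6b signal minus the brighter Rab6a signal was -6.72, -6.63 and -6.69 in DOX+ and -2.87, -2.99 and -4.05 in DOX-. The means were -6.68 ± 0.05 and -3.31 ± 0.65 (SD, n = 3 each), which shows unequal change of these signals and compares no abundance between the genes.

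**Figure D1:**
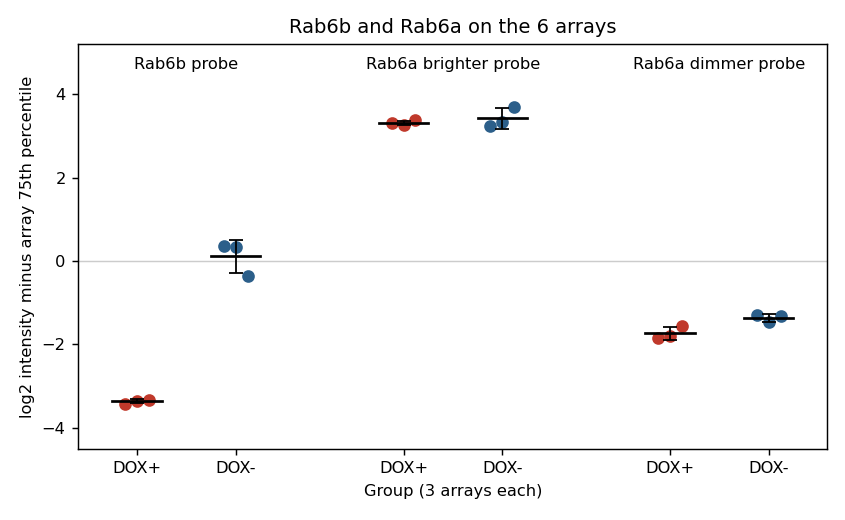
Log2 intensity relative to the array's 75th percentile for the Rab6b probe and both Rab6a probes, with 1 point per array (red DOX+, blue DOX-), the group mean as a line and the SD as a bar (n = 3). The Rab6b points lie between -3.42 and -3.32 in DOX+ and between -0.35 and 0.36 in DOX-, while the brighter Rab6a probe stays between 3.23 and 3.7 in both groups.

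Closely related Rabs can be set side by side in the same way. In 12 other pairs of related members the gap between the 2 differences ran from 0.01 to 1.12 with a median of 0.4, against 3.37 for Rab6b and Rab6a, which were chosen for it. The pairs do not cover every measured relative: Rab3a, at 0.69, was paired with Rab3d and not with Rab3b, at -0.39 (SE 0.53). Among the pairs listed the next widest was Rab32, a Rab of lysosome-related organelles, at -0.90 against its relative Rab38 at 0.22 (SE 0.57). It was followed by Rab40b and Rab40c, Rabs with a SOCS box that recruits a ubiquitin ligase, at 0.95 and 0.11. Rab4a and Rab4b, of rapid recycling, both had a difference of 0.17.

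A gene entered the test if a probe was well above background throughout 1 group or the other, as for 52 of the 59. The probe used was well above background on all 6 arrays for each of the 52, so none entered through 1 group alone. The other 7 were Rab3c, Rab9b, Rab26, Rab39 and Rab39b, which were well above background on no array, Rab33a, on 2 arrays, and Rab36, on 4 arrays with 1 of its 3 probes. Rab33a and Rab36 were seen equally often in the groups, on 1 array of each for Rab33a and 2 of each for Rab36. Rab3c, like Rab3a a Rab of regulated exocytosis in neurons, had processed intensities of 7.454 or less on every array.

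Of the 52 measured genes 1 passed the limma test over all genes, in the lower direction: Rab6b, for which the family was picked, so nothing is read from that count. Over all genes the test called 0.0386%, with 0.0193% lower. Without DOX- replicate 2 the count was 0 for the Rab genes and 0 for all genes, while the Rab6b difference was -3.37 (SE 0.25). The count of Rab genes was also 0 without the filter on dim probes and in the row-blocked fit. Among the 51 other measured Rab genes 22 had a higher and 29 a lower mean in DOX+, with a median difference of -0.02, where the median over all genes was -0.01 and 51.8% of genes had a lower mean. Their differences ran from -0.90 to 0.95, so that none differed 2-fold, as 5.83% of all genes did. The groups did not overlap for 3 of the 51 in the higher and 8 in the lower direction. That is 21.6%, against 21.0% of all genes (10.1% higher and 10.9% lower), and 5 of the 51 had an unadjusted limma p under 0.05, where 13.3% of all genes had one. The 95% interval of the difference lay within 1 log2 unit on both sides for 41 of the 52. Over all 52 the SE ran from 0.12 to 0.69 with a median of 0.18.

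**Figure D2:**
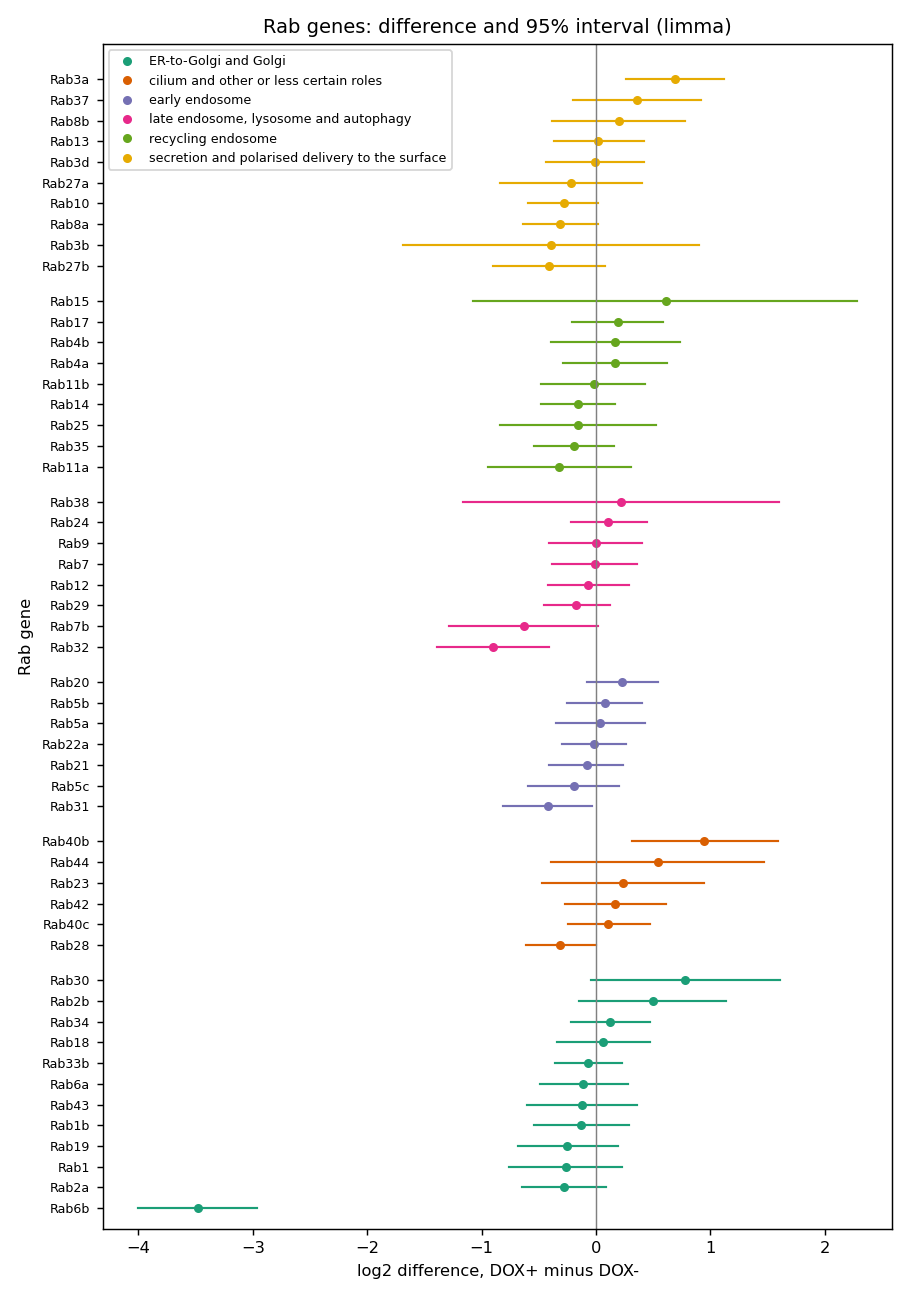
Log2 difference, DOX+ minus DOX-, of the 52 measured Rab genes with 95% intervals from limma (n = 3 arrays per group), grouped and coloured by compartment. Rab6b lies at -3.48 and the other 51 between -0.90 and 0.95.

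Of the 16 Rabs of the route from the endoplasmic reticulum (ER) to and through the Golgi 12 were measured, 4 with a higher and 8 with a lower mean, and the median difference was -0.11. Rab6b was the single member past the test, and the groups did not overlap for 16.7% of the 12, Rab6b included. Rab1a (Rab1 in the files), which takes cargo from the ER to the Golgi, had levels of 3.34, 3.36 and 3.35 in DOX+ and 3.25, 3.6 and 4 in DOX-. The groups overlapped and the DOX- arrays were far more spread, with a difference of -0.26 (SE 0.20; limma adjusted p = 0.604) that was 0.1 in the row-blocked fit. Rab2a, which tethers vesicles between ER and Golgi, had 3.11, 3.05 and 3.05 in DOX+ and 3.16, 3.28 and 3.61 in DOX-. Those groups did not overlap, but the difference of -0.28 (SE 0.15) did not pass (limma adjusted p = 0.47). Other Rab2a probes gave -0.47 without overlap and, at a dim probe, -0.06 with overlapping groups. The paralog Rab2b had a difference of 0.50 (SE 0.26) with overlapping groups. A second Rab2b probe gave 0.21, with all DOX+ arrays above all DOX- arrays. Rab30, a Golgi Rab, was dim and stood at 0.78 (SE 0.34; limma adjusted p = 0.391). Its DOX+ replicate 3 at -4.08 lay among the DOX- arrays, which ran from -4.7 to -3.82.

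Among 12 Rabs of secretion and of polarised delivery to the surface 10 were measured, 4 higher and 6 lower, with a median difference of -0.12 and none past the test. The groups did not overlap for 1 in the higher and 3 in the lower direction (40.0%, against 21.0% of all genes). Rab3a, a Rab of regulated exocytosis best known at synapses, had levels of 1.24, 1.62 and 1.69 in DOX+ and 0.74, 0.7 and 1.04 in DOX-. All DOX+ arrays were above all DOX- arrays, with a difference of 0.69 (SE 0.18), and it did not pass (limma adjusted p = 0.236). This probe was printed on 10 spots per array, and the SD between those spots was 0.032 to 0.08 within an array, against SDs of 0.24 and 0.19 between the arrays of a group. A second Rab3a probe had a difference of 0.80 with groups that did not overlap either. Rab3d, the form found in exocrine secretory granules, had a difference of -0.01 (SE 0.18). It was 0.05 with quantile normalisation.

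Rab8a and Rab10, which carry vesicles from the Golgi and recycling endosomes to the surface, were both lower on every DOX+ array than on any DOX- array at the probe used. Rab8a had 1.22, 1.02 and 0.95 in DOX+ and 1.44, 1.24 and 1.42 in DOX-, a difference of -0.31 (SE 0.13; limma adjusted p = 0.395). Its second probe, at -0.19, overlapped between the groups. Rab10 had 2.24, 2.11 and 2.18 in DOX+ and 2.34, 2.45 and 2.59 in DOX-, a difference of -0.28 (SE 0.13; limma adjusted p = 0.397). Rab27b, which docks secretory granules and exosomes, had 0.99, 1.37 and 1.45 in DOX+ and 1.47, 1.59 and 1.99 in DOX-, a difference of -0.41 (SE 0.20; limma adjusted p = 0.432). Its second probe well above background on all arrays gave -0.23 with overlapping groups. Rab27a, its paralog, had -0.22 (SE 0.25) and overlapped, and it had 0.09 in the row-blocked fit.

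All 9 Rabs of the recycling endosome were measured, 4 higher and 5 lower, with a median difference of -0.02. The groups overlapped for each of the 9, where they did not overlap for 21.0% of all genes. Rab11a, the main Rab of apical recycling, had 3.77, 3.58 and 3.54 in DOX+ and 3.45, 3.96 and 4.43 in DOX-. The DOX- arrays spanned the DOX+ arrays, and the difference of -0.32 (SE 0.26; limma adjusted p = 0.618) was 0.18 in the row-blocked fit. Rab25, the epithelial member of the Rab11 group, had a difference of -0.16 (SE 0.28), which was 0.12 without DOX- replicate 3 and 0.36 in the row-blocked fit. For Rab17, another Rab of polarised epithelia, the difference was 0.19 (SE 0.16). Rab15 was the most variable member: DOX+ replicate 2 stood at 0.39 while the other DOX+ arrays were at -1.64 and -1.87, and DOX- lay from -2.4 to -0.83.

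The 7 Rabs of the early endosome were all measured, 3 higher and 4 lower, with a median difference of -0.02. The groups did not overlap for 1 in each direction (28.6%). Rab5a, which drives fusion of early endosomes, had a difference of 0.04 (SE 0.16), with a 95% interval of -0.35 to 0.43, and -0.08 with median centring. Rab31, close to Rab22a and active between the Golgi and endosomes, had -0.88, -0.82 and -1.03 in DOX+ and -0.72, -0.5 and -0.25 in DOX-. The groups did not overlap and the difference was -0.42 (SE 0.16; limma adjusted p = 0.357). A second Rab31 probe gave -0.67, with groups that overlapped.

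Of 9 Rabs of the late endosome, lysosome and autophagy 8 were measured, 2 higher and 6 lower, with a median of -0.04. Rab32 had the lowest difference in the family after Rab6b. Its levels were 1.67, 1.51 and 1.97 in DOX+ and 2.51, 2.94 and 2.39 in DOX-, without overlap, and the difference of -0.90 (SE 0.20; 1.87-fold) did not pass (limma adjusted p = 0.205). It passed only when arrays were weighted, at -1.17 (limma adjusted p = 0.0485), a setting that gave DOX- replicate 2 a weight of 4.03 and called 259 genes. Rab7, the central Rab of late endosomes, had means of 2.37 in both groups, with a 95% interval of the difference of -0.38 to 0.36. Rab7b, a relative on the route from endosomes to the Golgi, had 1.63, 2 and 1.13 in DOX+ and 2.53, 2.2 and 1.93 in DOX-, which overlapped, and a difference of -0.63 (SE 0.27; limma adjusted p = 0.382). A second, dimmer Rab7b probe gave -0.52, with groups that did not overlap.

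The 6 remaining genes, with roles in the cilium or less certain ones, were all measured, 5 higher and 1 lower. The groups did not overlap for 1 in each direction (33.3%). Rab40b had -3.1, -2.77 and -3.2 in DOX+ and -3.44, -4.31 and -4.18 in DOX-. The DOX+ arrays were all above the DOX- arrays, the difference was 0.95 (SE 0.26), and it did not pass (limma adjusted p = 0.251). It was 0.42 in the row-blocked fit and 0.49 with normexp. Rab28, a Rab of cilia and photoreceptors, had 2.27, 2.35 and 2.35 in DOX+ and 2.58, 2.53 and 2.78 in DOX-, a difference of -0.31 (SE 0.13; limma adjusted p = 0.371). Its other probes gave -0.08 and 0.02 with overlapping groups, so the separation held at 1 of its 3 probes.

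Across the family 32 genes had at least 2 probes well above background on all 6 arrays. Their probes had the same direction for 22 genes, and the span between the highest and the lowest difference of a gene was 0.17 in the median and at most 0.41, for Rab2a. Rab6b has no second probe, so this check could not be made for it.

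**Figure D3:**
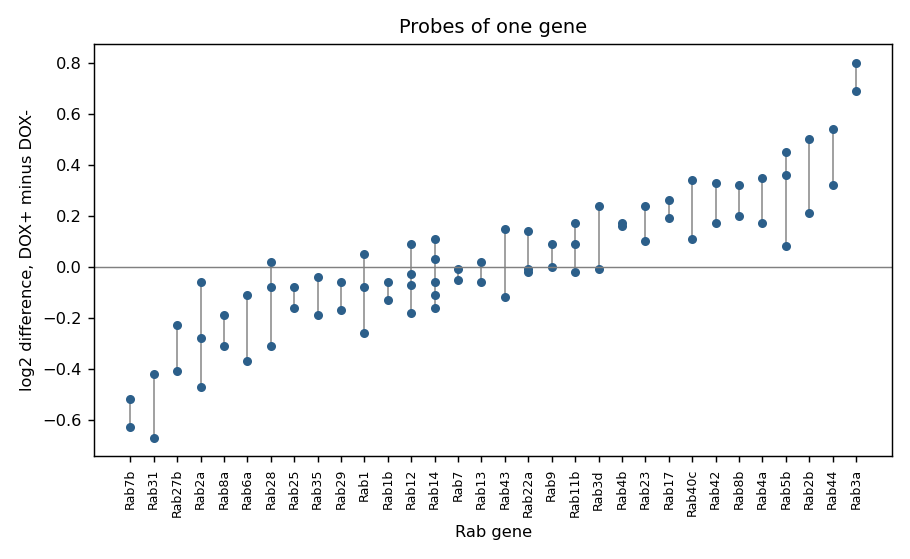
Log2 difference, DOX+ minus DOX-, of each probe well above background on all 6 arrays, for the 32 Rab genes with at least 2 such probes; a line joins the probes of a gene. Spans reach at most 0.41, and both Rab3a probes lie at 0.69 and 0.80.

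The arrays themselves differed in their Rab levels on the scale used, which subtracts each array's 75th percentile. DOX- replicate 3 had the lowest such percentile, 666.16 against 712.2 to 910.07 on the other arrays. It also had the fewest spots well above background (55.93%). The part of the scaling in these array differences was not tested. DOX- replicate 3 held the highest level of 27 of the 52 genes (51.9%), where it held that of 33.0% of all genes, and DOX- replicate 1 the lowest level of 17 (32.7%, against 19.0% of all genes). The median deviation of the 52 genes from their own means was 0.19 on DOX- replicate 3 and -0.10 on DOX- replicate 1, and between -0.05 and 0.02 on the other 4 arrays. The spread between replicates was larger in DOX- than in DOX+ for 32 of the 52 genes (61.5%, against 54.1% of all genes), with median SDs of 0.25 and 0.16. Without DOX- replicate 3 the median difference of the family was 0.04.

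**Figure D4:**
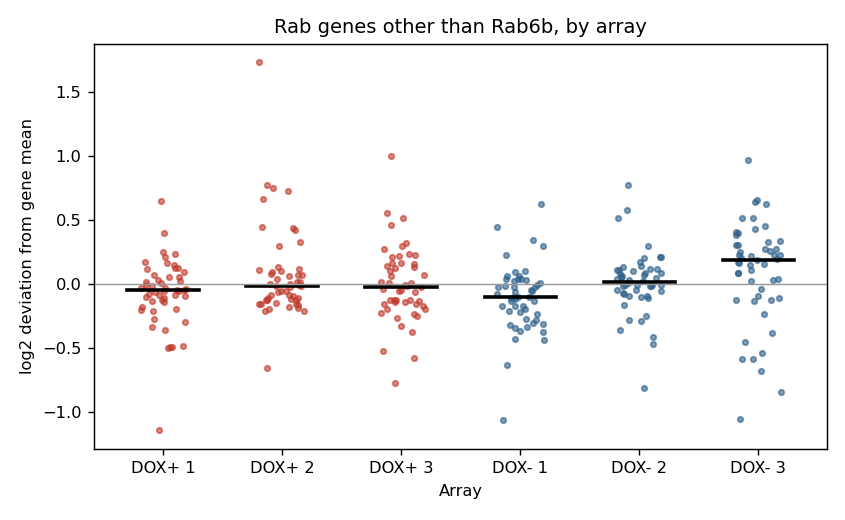
Log2 deviation of the 51 measured Rab genes other than Rab6b from each gene's mean over the 6 arrays, 1 point per gene, with the median of each array as a line (red DOX+, blue DOX-). Points of DOX- replicate 3 lie mostly above 0 and those of DOX- replicate 1 mostly below.

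The proteins that load, switch and read Rabs were described from 7 lists with 147 genes, of which 143 were measured. None passed the limma test in either direction, 12 had an unadjusted p under 0.05 (13.3% of all genes did), 70 had a higher and 73 a lower mean, and the median difference was -0.02. The groups did not overlap for 17 in the higher and 16 in the lower direction (23.1%, against 21.0% of all genes). All 9 genes of prenylation and recycling were measured, 4 higher and 5 lower, and the groups did not overlap for 44.4% of them. Those with the smallest p included the Rab acceptor Rabac1 (0.31, SE 0.14) and Arl6ip5 (-0.30, SE 0.14).

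All 26 genes of the Rab6 machinery were measured, 10 higher and 16 lower (61.5%, against 51.8% of all genes), with a median difference of -0.07. The groups did not overlap for 2 of the 26, both lower, which is 7.69%, against 21.0% of all genes. Tmf1, a golgin that binds Rab6, had levels of -0.42, -0.43 and -0.59 in DOX+ and -0.23, -0.17 and 0.14 in DOX-. The groups did not overlap, and the difference of -0.39 (SE 0.15) did not pass (limma adjusted p = 0.346). Bicdl2 had 2.41, 2.16 and 2.19 in DOX+ and 2.45, 2.5 and 2.87 in DOX-, a difference of -0.35 (SE 0.16, limma adjusted p = 0.411). Kif20a, the mitotic kinesin first described as a Rab6 partner, had -0.83 (SE 0.42; limma adjusted p = 0.445) with overlapping groups.

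Among 28 measured GEFs of other Rabs the median difference was -0.03, and among 36 other GAPs it was -0.01. The GEFs with the smallest p included Dennd1a, which acts on Rab35 (0.34, SE 0.14), and Dennd6b (0.33, SE 0.17). For the GAPs they were Tbc1d2, which acts on Rab7 (-0.51, SE 0.15), Evi5l (0.40, SE 0.12) and Tbc1d4, which holds back glucose transporter vesicles (0.41, SE 0.15). The groups did not overlap for any of these 5 genes, which were picked by p, and their limma adjusted p lay between 0.283 and 0.456. Over the whole lists the groups did not overlap for 17.9% of the GEFs and 22.2% of the GAPs, against 21.0% of all genes.

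Effectors of secretory Rabs had 15 of 18 measured and a median of -0.03. Sytl3, which binds Rab27, had a difference of 0.96 (SE 0.33), with DOX+ replicate 2 at 0.15 far above the other arrays. Unc13d, a priming factor that binds Rab27, had -0.51 (SE 0.19). Myrip, which links Rab27 granules to myosin, was dim, with -3.77, -3.12 and -5.03 in DOX+ and -4.52, -6.3 and -5.61 in DOX-. These overlapped, and since it was well above background on all 3 DOX+ arrays but on 1 DOX- array, it entered the test through DOX+ alone and its difference is not given. Effectors of recycling Rabs, all 11 measured, had a median of 0.08. The groups did not overlap for 2 of these in the higher and 3 in the lower direction (45.5%, against 21.0% of all genes). Rab11fip2, which ties Rab11 to myosin Vb, was dim, with -3.58, -3.36 and -3.79 in DOX+ and -4.82, -4.53 and -4.29 in DOX-. The lowest levels well above background on DOX- replicates 1 to 3 were -5.02, -5.00 and -4.71. All DOX+ arrays were above all DOX- arrays, and the difference of 0.97 (SE 0.19) did not pass (limma adjusted p = 0.181) except when arrays were weighted (0.042). Rufy3 had -0.31 (SE 0.11) and Rab11fip1 -0.40 (SE 0.17).

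Effectors of endosomal and lysosomal Rabs, all 18 measured, had a median of 0.04. The groups did not overlap for 3 of these in each direction (33.3%, against 21.0% of all genes). Osbpl1a, a sterol sensor that binds Rab7, had 0.49, 0.69 and 0.67 in DOX+ and 0.28, -0.22 and -0.28 in DOX-, a difference of 0.69 (SE 0.19; limma adjusted p = 0.246). Rilpl1, a relative of the Rab7 effector Rilp, had 0.71 (SE 0.28), and Vps41, of the HOPS tethering complex, -0.33 (SE 0.13). The Arf, Arl and Sar GTPases, the other small GTPases of vesicle traffic, had 26 of 28 measured, 9 higher and 17 lower. Their median was -0.12, none passed the test, and the groups did not overlap for 19.2% of them. Their smallest p values were at Arl14 (-0.75, SE 0.23), Arl8a, of lysosome transport (-0.30, SE 0.12), and Arl2, of tubulin folding (0.31, SE 0.14).

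**Figure D5:**
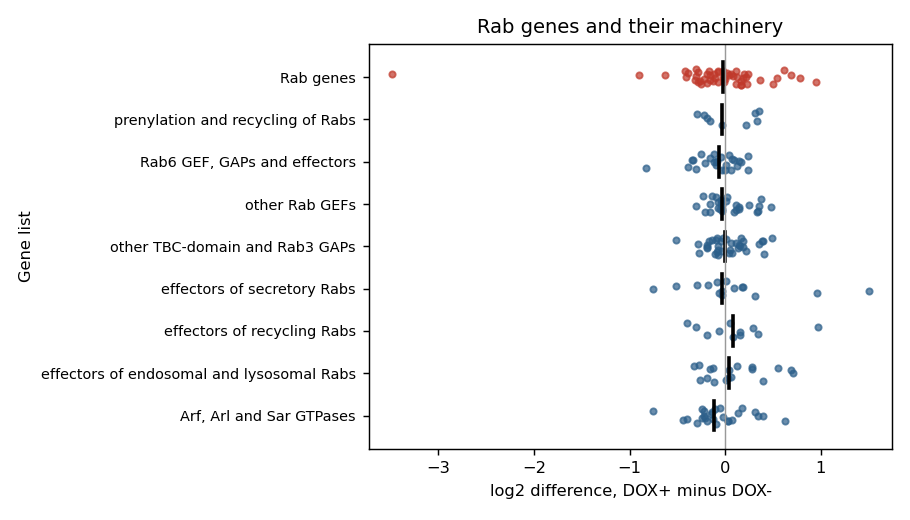
Log2 difference, DOX+ minus DOX-, of the 52 measured Rab genes (red), of the 7 lists of Rab machinery and of the Arf, Arl and Sar GTPases (blue), 1 point per gene, with the median as a line. Medians lie between -0.12 and 0.08, and Rab6b stands alone at -3.48.

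The genes beside Rab6b on the chromosome, taken in order from the RefSeq table of the GRCm38.p6 assembly, were also read. Of 3 protein-coding neighbours on each side 5 were measured, and the groups overlapped for all 5. Slco2a1, a prostaglandin transporter next to Rab6b, stood at -0.54 (SE 0.26), and Srprb, the neighbour on the other side and a subunit of the signal recognition particle receptor, had -0.01 (SE 0.26). The differences of the other 3, Amotl2, Ryk and Trf, lay between -0.29 and 0.21.

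Markers of cell types were read on the same arrays. Of 11 neuronal markers 7 were measured, and Chrna3 was well above background on no array. Of the 7, 4 had a higher and 3 a lower mean, with differences from -0.90 to 0.27. The groups did not overlap for 2 in the higher and 1 in the lower direction (42.9%, against 21.0% of all genes). The summed level of the 7, in multiples of the array's 75th percentile, was 14.2 to 17.4 in DOX+ and 14 to 16.1 in DOX-. Of 5 glial markers 4 were measured (7.34 to 11.3 and 9.49 to 13.2), with Gfap on no array. Of 7 neuroendocrine markers 1 was measured, Tph1, which mast cells also express, and Neurod1 and Insm1 were on no array. Tph1 entered the test through DOX+ alone, with levels of -3.93, -2.7 and -0.38 there, and on no DOX- array was it well above background. The summed level of that list, which is Tph1 alone, was 0.0656 to 0.77 in DOX+ and 0.00716 to 0.0265 in DOX-. Since Tph1 passed the filter through DOX+ alone, nothing is read from that gap. The part of these cell types in the Rab6b difference was not tested.

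Other marker lists moved with the groups. The summed level of 8 of 9 biliary epithelial markers was 449 to 486 in DOX+ and 509 to 688 in DOX-, without overlap. Of the 8, 7 had a lower mean, and Cldn4 did not enter the test. The sum is mostly that of the keratins Krt8, Krt18 and Krt19; the lowest differences were at the adhesion protein Cdh1 (-2.01, SE 0.37) and the keratin Krt7 (-1.02, SE 0.19), whose groups did not overlap and which did not pass. The summed level of 6 mast cell markers was 3.02 to 55.6 in DOX+ and 1.61 to 2.22 in DOX-. All 6 had a higher mean in DOX+, and the groups did not overlap for 4 (66.7%, against 21.0% of all genes). The part of these cell types in the Rab6b difference was not tested either. Sums overlapped between the groups for endothelium (5.23 to 8.88 and 4.29 to 5.88), fibroblasts (79.1 to 130 and 98.2 to 150), smooth muscle (74.5 to 174 and 57 to 301), macrophages (43 to 51.2 and 27.7 to 71.6), pancreatic acinar cells (104 to 178 and 59.8 to 276) and hepatocytes (67.5 to 130 and 59.8 to 141). All 5 endothelial markers had a higher mean in DOX+, with a median difference of 0.54 and no overlap for 2 (40.0%). The 6 acinar markers were all higher too, with a median of 0.96, and the groups overlapped for each. Fibroblast, smooth muscle, macrophage and hepatocyte markers went in both directions. The single measured islet marker of 5, Gcg, was at 0.087 to 0.1 and 0.0696 to 0.0938.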

How the data were processed

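The scanner files hold spot intensity, extracted by the authors with Agilent Feature Extraction 10.7.1.1 per the file headers (9.5.1.1 per the submitters' processing notes), background-subtracted and detrended within an array. The deposited files also hold 0 or 1 flags, such as well above background. A deposited table of the authors' processed intensity, alike between arrays, was an alternative. Each array's 75th percentile was subtracted on the log2 scale, outlier spots were dropped (none at a Rab probe), and spots of a probe were averaged. Probes well above background throughout either group were kept (31720), and the brightest represented a gene. DOX+ and DOX- were compared over 20737 genes with limma 3.58.1 under R 4.3.3 (group as the only term, lmFit then eBayes, two-sided, Benjamini-Hochberg, threshold 0.05), tested on simulated data. Genes were named through RefSeq's GRCm38.p6 table. The design text states 3 mice per group; since no label ties a sample to a mouse, p-values cover only sample-to-sample spread. The members and all lists were chosen with earlier results of these data known. Genes named are Rab6b, Rab6a, the 12 other Rab genes with the smallest p, 11 standard members and the 3 genes with the smallest p in each list of machinery, of which some are not reported here; Rab15, the markers given singly, the paralogs, the unmeasured genes and the chromosomal neighbours were named after their values were seen. Alternatives were other background corrections, scalings, filters and probe rules, array weights, a slide row or replicate block, and leaving out each array.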

Additional observations from a re-analysis of the deposited data

How the results depend on the processing

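Rab6b kept its direction under all 16 alternatives: -3.71 to -3.36 with 1 array left out and -3.73 to -2.71 otherwise, the latter with normexp. The count of 1 Rab gene past the limma test became 0 with no filter on dim probes and with slide row blocked, 2 with array weights, and 0 to 1 with 1 array left out; Rab machinery genes past it numbered 0 throughout, except 1 with array weights. Calls over all genes went from 8 to 259 with array weights, to 2 with quantile normalisation or the authors' values, to 5 with median centring or when probes had to be well above background on all arrays, to 1 without the filter on dim probes, to 0 with slide row blocked, and to 0 to 30 with 1 array left out. The family median of -0.02 was -0.14 with median centring, which moved the median of all genes to -0.13, 0.1 with slide row blocked, and -0.09 to 0.04 with 1 array left out.

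Small differences changed sign. With slide row blocked, DOX- replicate 1 is the only control set against the DOX+ arrays. In that fit they were 0.08 (Rab6a), 0.1 (Rab1a), 0.16 (Rab7), 0.18 (Rab11a), 0.36 (Rab25), 0.09 (Rab27a) and 0.28 (Rab3d). For the other settings the cause of the sign changes was not tested. Quantile normalisation gave 0.0039 (Rab6a), 0.07 (Rab7) and 0.05 (Rab3d), and the authors' values 0.004, 0.07 and 0.05. Rab7 was 0.0063 with normexp and 0.08 with array weights, Rab3d 0.11 as a mean over probes, and Rab5a -0.08 with median centring. With 1 array left out Rab6a ran from -0.2 to 0.04, Rab5a from -0.09 to 0.16, Rab7 from -0.09 to 0.12, Rab25 from -0.41 to 0.12 and Rab3d from -0.16 to 0.08.

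Deviations of same-numbered arrays correlated at -0.087, -0.131 and -0.02, and those of arrays with different numbers at -0.129 to 0.219. With 3 arrays per group this cannot settle whether the samples were paired. With a replicate block Rab6b was -3.48, and 0 Rab genes and 0 of all genes passed the limma test. Probes near background limit Rab3c, Rab9b, Rab26, Rab33a, Rab36, Rab39 and Rab39b, for which no difference was estimated.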
